A study of Homo sapiens with 6 samples.

Results

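The genes described here are 10 genes of NF-κB signalling and of the inflammatory response it drives: CXCL8, CXCL1, CXCL2, IL6, IL1B, NFKBIA, NFKB1, NFKB2, TNFAIP3 and BIRC3. They were chosen by symbol, with earlier results of these data known, among the 25827 features of the deposited table of nascent reads. CXCL8 was included because SFPQ is known as a repressor of it. A row of reads was found for 9 of the 10. Of these, CXCL8, CXCL1, CXCL2, IL6, NFKBIA, NFKB1, NFKB2 and TNFAIP3 reached a value of 10 in all 6 libraries. IL1B reached it in 4 libraries, those given an siRNA against SFPQ, so it entered the tests only through the group in which it was high. BIRC3 had no row under that symbol and is described only from its deposited signal profile.

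The study measured nascent transcription by PRO-seq, which labels the RNA at engaged RNA polymerases in permeabilized cells and so counts polymerases rather than stored mRNA. The cells were SBC-3, a human cell line from small cell lung cancer, and all 3 groups were transfected with an siRNA at 10 nM and taken at 72 h. The groups were a control siRNA (siCtrl) and a pair of siRNAs against the RNA-binding and paraspeckle protein SFPQ (siSFPQ-2 and siSFPQ-3), with 2 libraries each. Whether the 2 libraries of each group come from different cultures is not in the labels, and the p-values therefore measure only the spread between these libraries, which may be technical. All values come from 1 cell line.

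The libraries held between 12072813 and 18475158 reads in the table. The SFPQ gene itself gave 2294 and 2435 normalized reads in siCtrl, 1825 and 1972 in siSFPQ-2 and 1922 and 2466 in siSFPQ-3 (adjusted p = 0.137 in limma, or 0.0256 without siSFPQ-3 replicate 2). An siRNA acts on the finished mRNA, so nascent SFPQ does not check the knockdown. Among small cell lung cancer markers, YAP1 and REST gave 1042 to 5431 normalized reads and CHGA at most 5.54, while INSM1 and NCAM1 had no row. YAP1 was called higher in the siSFPQ libraries (log2 fold change 0.73), DLL3 (-0.83) and POU2F3 (-0.54) lower, and NEUROD1 (-0.94), SYP (0.14) and REST (0.01) were not called. No endothelial marker of 5 had a row, and neither did the pan-leukocyte marker PTPRC. CD68 and CD79A were the immune markers present, 2 of 9, summing to 747 and 750 in siCtrl and 463 to 752 in the siSFPQ libraries. CD68, which makes up most of that sum, was called lower (log2 fold change -0.49), and CD79A, at 6.38 to 42.5 normalized reads, was called higher (2.60-fold). COL1A1 and COL1A2 were the fibroblast markers present, 2 of 6, summing to 224 and 255 in siCtrl and 411 to 582 in the siSFPQ libraries, with COL1A1 called higher (log2 fold change 1.16). The part of these markers in the results was not tested.

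NF-κB is a family of paired transcription factors that wait in the cytoplasm, held by IκB proteins. Signals from receptors for tumour necrosis factor, interleukin-1 or microbial products activate the IκB kinase, which marks IκB for destruction, and the freed factors enter the nucleus and bind κB sites. Among their targets are the chemokines that call neutrophils, the cytokines IL6 and IL1B, and the pathway's own brakes: NFKBIA encodes the IκBα that is resynthesised to recapture NF-κB, and TNFAIP3 encodes A20, a ubiquitin-editing enzyme that shuts off the upstream signal. NFKB1 and NFKB2 encode precursors that yield the subunits p50 and p52 and themselves act as IκB proteins, so they too are both targets and parts of the feedback.

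The promoter stretches that hold a κB-type match are shown first, since such sites are the best known common feature of these genes. A search used the letters GGNNNTTCC on both strands (GGAANNNCC where the match is on the other strand), in RefSeq windows of 300 bases, 250 before and 50 after each annotated start, of the GRCh38.p14 assembly. Letters of the κB match are in capitals, as is the AP-1 match TGANTCA (searched on both strands) of CXCL8, and each line is on the gene's own strand, 5′ to 3′.
CXCL8, chr4:73740424-73740568, plus strand, up to the start: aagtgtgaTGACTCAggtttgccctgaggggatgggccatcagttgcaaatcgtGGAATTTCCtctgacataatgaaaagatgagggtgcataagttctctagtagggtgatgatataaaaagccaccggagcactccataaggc
CXCL1, chr4:73869293-73869392, plus strand, up to the start: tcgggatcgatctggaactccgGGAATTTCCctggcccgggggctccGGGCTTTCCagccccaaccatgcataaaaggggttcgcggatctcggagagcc
CXCL2, chr4:74099196-74099295, minus strand, up to the start: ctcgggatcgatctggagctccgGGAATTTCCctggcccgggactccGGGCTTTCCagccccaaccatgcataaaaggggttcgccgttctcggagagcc
IL6, chr7:22727100-22727199, plus strand, up to the start: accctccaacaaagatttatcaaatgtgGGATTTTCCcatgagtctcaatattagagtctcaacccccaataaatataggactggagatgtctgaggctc
NFKBIA, chr14:35404750-35404849, minus strand, up to the start: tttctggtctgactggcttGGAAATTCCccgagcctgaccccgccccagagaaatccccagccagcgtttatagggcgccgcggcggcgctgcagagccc
NFKB1, chr4:102501259-102501358, plus strand, up to the start: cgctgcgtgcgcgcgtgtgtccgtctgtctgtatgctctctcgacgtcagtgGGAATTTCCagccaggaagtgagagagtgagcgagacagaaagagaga
NFKB2, chr10:102394460-102394489, plus strand, before the second annotated start: ggaaacgtcatGGGAATTCCCccctccggg
TNFAIP3, chr6:137867187-137867216, plus strand, before the start of its window: actttGGAAAGTCCcgtGGAAATCCCcggg
BIRC3, chr11:102317269-102317483, plus strand, up to the start: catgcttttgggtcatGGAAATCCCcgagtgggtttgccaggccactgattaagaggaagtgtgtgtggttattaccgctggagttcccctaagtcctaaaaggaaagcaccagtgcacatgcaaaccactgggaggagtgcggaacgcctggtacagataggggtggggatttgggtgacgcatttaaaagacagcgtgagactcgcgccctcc

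A κB-type match was present in 10 of the 13 windows of these genes, against 20.1% of all 35116 promoter windows of that length. The genes were chosen for their part in NF-κB signalling, so that higher share is a description and not a test. By gene, 9 of the 10 had a match. IL1B was the gene without one, and no match says only that these letters are not in that window. The same 9 letters, GGAATTTCC, stood 91 to 83 bases before the start of CXCL8, 78 to 70 before CXCL1, 77 to 69 before CXCL2 and 48 to 40 before NFKB1. IL6 had GGATTTTCC at 72 to 64 bases before its start. CXCL1 and CXCL2 had a further match, GGGCTTTCC, at 53 to 45 bases in both, and over the 250 bases before the start these 2 promoters were 70.1% identical, while CXCL8 was 44.3% identical to CXCL1. In the table as a whole the match did not mark the genes that went up: it was in 21.2% of the windows of features called at least 1.5-fold higher after SFPQ knockdown (16.6% of tested features were) and in 23.6% of those not called. The AP-1 letters were in 7.71% of all windows, in 9.02% of the windows of features at least 1.5-fold higher and in 5.08% of those not called, and among these genes only in CXCL8. A match is a description of letters and not evidence of binding in these cells.

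All 9 genes with reads, of which 8 had values of 10 or more in every library, were transcribed more in the siSFPQ libraries, by 1.53-fold (CXCL2) to 17.7-fold (IL1B), and each passed the test with both siRNAs together and with either siRNA alone. The largest rises were in the cytokines IL1B and IL6 and in TNFAIP3, the middle ones in NFKB2, NFKB1 and CXCL8, and the smallest in NFKBIA, CXCL1 and CXCL2. Across all 21773 features tested, 24.8% were called higher and 23.2% lower, so calls were common in these libraries. The median log2 fold change was 1.94 over the 9 genes and -0.02 over all tested features. IL1B, which entered only through its siSFPQ libraries, is among the 9. For the other 8 the median lies between CXCL8 at 1.22 and NFKB1 at 1.94. In each of the 9, all 4 siSFPQ libraries lay above both siCtrl libraries, which held for 30.3% of tested features. In bulk libraries, more cells transcribing a gene and more polymerases per cell cannot be told apart.

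**Figure D1:**
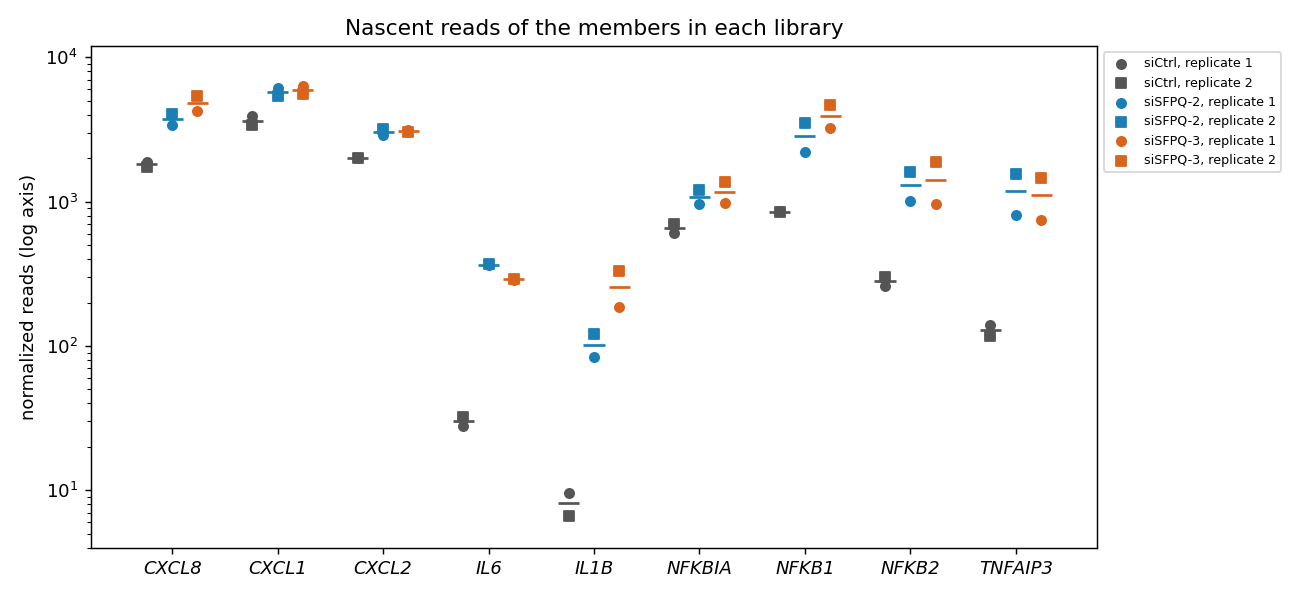
Normalized reads of the 9 genes with a row in the table, on a log axis, for each of the 6 libraries (circles replicate 1, squares replicate 2; horizontal bars are group means, n = 2). The siCtrl points lie below all siSFPQ points for every gene, with the widest gaps for IL6, IL1B and TNFAIP3.

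CXCL8, CXCL1 and CXCL2 encode secreted chemokines that attract neutrophils through the receptors CXCR1 and CXCR2. They lie in a chemokine cluster on chromosome 4, CXCL8 (ENSG00000169429) at 73740569 to 73743716, CXCL1 (ENSG00000163739) at 73869393 to 73871308 and CXCL2 (ENSG00000081041) at 74097040 to 74099195. CXCL8 gave 1890 and 1741 normalized reads in siCtrl, 3397 and 4026 in siSFPQ-2, and 4268 and 5411 in siSFPQ-3. Every siSFPQ library was above both controls, and both siSFPQ-3 libraries were above both siSFPQ-2 libraries. From 1816 ± 105 (SD, n = 2) in siCtrl to 4276 ± 841 (n = 4) in the siSFPQ libraries, CXCL8 rose 2.32-fold (log2 fold change 1.22 ± 0.12, SE; limma adjusted p = 2.85e-05).

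CXCL1 gave 3896 and 3399 normalized reads in siCtrl, 6104 and 5392 in siSFPQ-2, and 6315 and 5597 in siSFPQ-3. The gap between the groups was wider than the spread within each, and the rise was 1.60-fold (log2 fold change 0.68 ± 0.12, SE; limma adjusted p = 0.000812). CXCL2 gave 2004 and 1992 in siCtrl, 2905 and 3177 in siSFPQ-2, and 3131 and 3056 in siSFPQ-3. Its libraries agreed closely within each group, and it rose 1.53-fold (log2 fold change 0.62 ± 0.09, SE; limma adjusted p = 0.000375). CXCL1 and CXCL2 are close copies of each other and of CXCL3, the third GRO chemokine, so reads could be divided between them in ways the table does not show. CXCL3 itself rose from 1229 and 1192 to between 2295 and 2551 (log2 fold change 1.00 ± 0.09, SE; limma adjusted p = 1.49e-05).

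Genes next to the chemokines were not all higher. CXCL3, 58.4 kb from CXCL2, rose by 1.00 on the log2 scale. CXCL6, a related chemokine gene 93.0 kb from CXCL8, had a log2 fold change of -0.17 (limma adjusted p = 0.224). PF4V1, 14.9 kb from CXCL1, fell by 0.99 on the log2 scale (limma adjusted p = 0.00149), and MTHFD2L, 15.4 kb from CXCL2, fell by 0.59 (limma adjusted p = 0.00477). Over the 16 nearest tested protein-coding neighbours of the 10 genes that were outside the pathway lists, 5 were higher, 4 were lower and 7 were not called, with a median log2 fold change of -0.03 and a range of -1.66 to 0.77. These shares are near those of all tested features, 24.8% higher and 23.2% lower. The 16 lay from 90 bases (PSD) to 1154 kb (PPP3CA) away. Neighbours inside the lists were CXCL3 and IL1A, called higher, and CXCL6 and BIRC2, not called.

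IL6 (ENSG00000136244, chromosome 7, 22727200 to 22731998) encodes interleukin-6, a cytokine that signals through IL6R and the shared subunit IL6ST to activate STAT3. It gave 27.9 and 32.1 normalized reads in siCtrl, 365 and 368 in siSFPQ-2, and 287 and 293 in siSFPQ-3. The replicates of each siSFPQ group lay within a few percent of each other, both siSFPQ-2 libraries were above both siSFPQ-3 libraries, and all 4 were far above the controls. The rise was 10.6-fold (log2 fold change 3.40 ± 0.14, SE; limma adjusted p = 9.77e-08). An antisense gene, IL6-AS1, shares 421 bases of its span with IL6, and the sources used here do not say whether counting took strand into account.

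IL1B (ENSG00000125538, chromosome 2, 112829751 to 112836779) encodes pro-interleukin-1β, which inflammasome caspases cut into the active cytokine that feeds back on NF-κB through IL1R1. It was nearly silent in siCtrl, with 9.56 and 6.65 normalized reads, which are 12 and 6 sequenced reads. It gave 83.8 and 121 in siSFPQ-2 and 185 and 330 in siSFPQ-3. The lowest siSFPQ library was far above the higher control, and the siSFPQ libraries themselves spanned 83.8 to 330. The rise was 17.7-fold on the log2(value + 1) scale (log2 fold change 4.14 ± 0.28, SE; limma adjusted p = 1.61e-06). IL1A, which encodes the other interleukin-1 and lies 45.3 kb from IL1B, went from 6.38 and 6.65 to 125 and 176 in siSFPQ-2 and 303 and 614 in siSFPQ-3, a log2 fold change of 5.08. Like IL1B, it was below 10 in both siCtrl libraries and entered the test only through the siSFPQ libraries. In both interleukin-1 genes each siSFPQ-3 library was above each siSFPQ-2 library.

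NFKBIA (ENSG00000100906, chromosome 14, 35401513 to 35404749) encodes IκBα and had the smallest rise, in value, of the 4 feedback genes NFKBIA, TNFAIP3, NFKB1 and NFKB2. It gave 604 and 701 normalized reads in siCtrl, 958 and 1203 in siSFPQ-2, and 979 and 1364 in siSFPQ-3, so that the lowest siSFPQ library was still above the higher control. The rise was 1.71-fold (log2 fold change 0.77 ± 0.15, SE; limma adjusted p = 0.00147). For siSFPQ-2 alone its call was lost without siCtrl replicate 1 (limma adjusted p = 0.0768) and without siSFPQ-2 replicate 2 (0.0558).

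TNFAIP3 (ENSG00000118503, chromosome 6, 137866349 to 137883312) gave 139 and 117 normalized reads in siCtrl, 803 and 1560 in siSFPQ-2, and 743 and 1463 in siSFPQ-3. The 2 libraries of each siSFPQ group differed almost by a factor of 2, yet the lowest was above the higher control several times over. From 128 ± 15.6 (SD, n = 2) to 1142 ± 429 (n = 4), it had a log2 fold change of 3.07 ± 0.28 (SE; limma adjusted p = 1.30e-05). The noncoding gene WAKMAR2 shares 1885 bases of its span with TNFAIP3 and also rose (log2 fold change 2.10, limma adjusted p = 0.000340), and without knowledge of strand the reads of the shared stretch cannot be assigned.

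NFKB1 (ENSG00000109320, chromosome 4, 102501359 to 102617302) gave 856 and 853 normalized reads in siCtrl, 2221 and 3505 in siSFPQ-2, and 3236 and 4667 in siSFPQ-3. It rose 3.85-fold (log2 fold change 1.94 ± 0.18, SE; limma adjusted p = 1.58e-05). NFKB1-AS1 and 2 unnamed noncoding genes share 1128, 6200 and 19648 bases of its span, and their reads cannot be told from those of NFKB1 without strand. NFKB2 (ENSG00000077150, chromosome 10, 102394110 to 102402529) gave 261 and 302 in siCtrl, 1005 and 1600 in siSFPQ-2, and 967 and 1879 in siSFPQ-3. It rose 4.64-fold (log2 fold change 2.22 ± 0.24, SE; limma adjusted p = 4.49e-05). Both precursor genes thus rose more than NFKBIA in value, with tight controls and wide siSFPQ groups. PSD, whose annotated span begins 90 bases after that of NFKB2, had a log2 fold change of -0.37 (limma adjusted p = 0.0602).

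The authors' deposited table, which sets both siRNAs against the control, gave log2 fold changes of the same sign for all 9 genes, from 0.62 for CXCL2 to 4.46 for IL1B, with adjusted p-values between 1.58e-40 (IL6) and 1.35e-05 (NFKBIA).

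BIRC3 (chromosome 11, 102317484 to 102339403) encodes cIAP2, a ubiquitin ligase of the tumour necrosis factor receptor complex and a textbook NF-κB target. Its deposited profile lay in the class named ns, where the other 9 genes were in the class named up. The mean signal over the last 90% of the BIRC3 gene was 0.87 and 0.91 in siCtrl, 0.67 and 0.23 in siSFPQ-2, and 0.93 and 0.99 in siSFPQ-3. The groups overlapped, and these values were close to those of IL1B in siCtrl (1.36 and 0.98) and far below those of the other genes. The log2 difference was -0.53 ± 0.53 (SE; limma adjusted p = 0.691), so no change was detectable at this signal. BIRC2, the paralogue 7.81 kb from BIRC3, had a log2 fold change of 0.24 (limma adjusted p = 0.0555).

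Per kilobase of annotated span, which puts genes of unequal length on a common scale, the siCtrl level fell from 1904 normalized reads per kb for CXCL1 through 927 for CXCL2, 577 for CXCL8, 202 for NFKBIA and 33.4 for NFKB2 to 7.57 for TNFAIP3, 7.37 for NFKB1, 6.25 for IL6 and 1.15 for IL1B. Among neighbours in that order, only TNFAIP3 and NFKB1 overlapped between their siCtrl libraries. After SFPQ knockdown the mean levels were 3054 for CXCL1, 1423 for CXCL2, 1358 for CXCL8, 348 for NFKBIA, 162 for NFKB2, 68.3 for IL6, 67.3 for TNFAIP3, 29.4 for NFKB1 and 25.6 for IL1B. In the siSFPQ libraries the neighbours CXCL2 and CXCL8, IL6 and TNFAIP3, and NFKB1 and IL1B overlapped. CXCL1, CXCL2 and NFKBIA, which were among the 4 highest per kb in siCtrl, were the 3 genes with the smallest rises, and the chemokines were still the most densely transcribed of the set after knockdown.

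Set against each other, the siRNAs gave the same ranking in broad terms, with IL1B, IL6 and TNFAIP3 at the top for both. For siSFPQ-2 the log2 fold changes against siCtrl were 3.57 for IL6, 3.50 for IL1B, 3.12 for TNFAIP3, 2.17 for NFKB2, 1.71 for NFKB1, 1.03 for CXCL8, 0.72 for NFKBIA, 0.66 for CXCL1 and 0.60 for CXCL2. For siSFPQ-3 they were 3.23 for IL6, 4.79 for IL1B, 3.02 for TNFAIP3, 2.26 for NFKB2, 2.18 for NFKB1, 1.40 for CXCL8, 0.83 for NFKBIA, 0.71 for CXCL1 and 0.63 for CXCL2. All 9 were called higher with each siRNA, where 21.2% of tested features were with siSFPQ-2 and 23.0% with siSFPQ-3. Both comparisons use the same 2 siCtrl libraries, so their likeness is not independent.

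**Figure D2:**
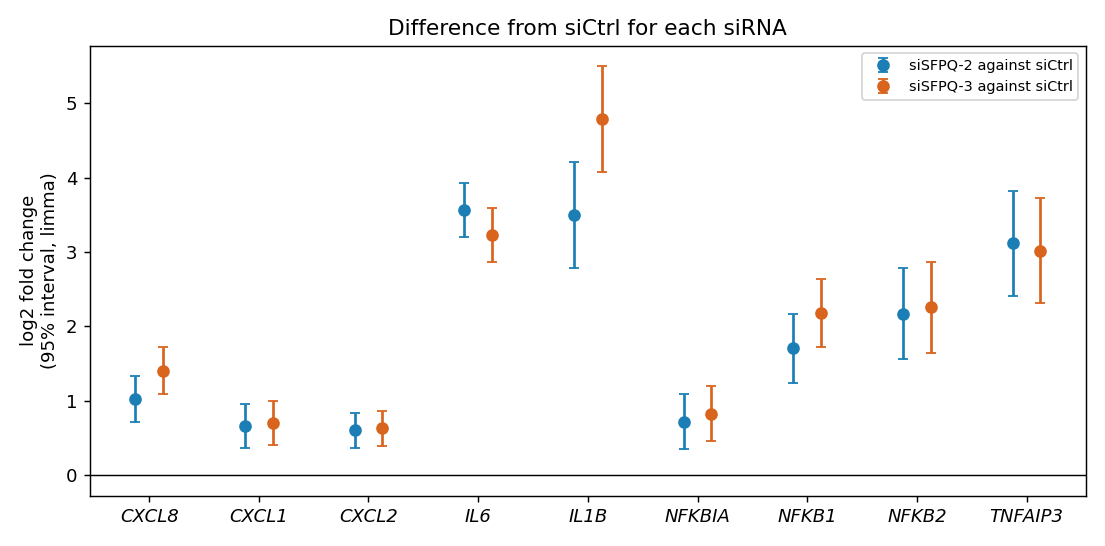
Log2 fold change of each gene against siCtrl, for siSFPQ-2 and siSFPQ-3 separately, with 95% intervals from limma (n = 2 libraries a group). All intervals lie above 0, and the intervals of the 2 siRNAs overlap for every gene, with the largest offset for IL1B (3.50 and 4.79).

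Tested directly, none of the 9 genes differed between siSFPQ-3 and siSFPQ-2 in limma after adjustment, where 0.101% of tested features did. Without adjustment IL1B, CXCL8 and NFKB1 had p under 0.05 in limma. The share of all tested features under that unadjusted limit was not counted. IL1B was 1.29 higher on the log2 scale with siSFPQ-3 (95% interval 0.58 to 2.00, limma adjusted p = 0.142). That difference was called by DESeq2 (adjusted p = 0.00676). It was also called in limma with the replicate number as a further term, the replicate block (adjusted p = 0.022). Same-numbered libraries of these 2 groups deviated together (r = 0.382). Without siSFPQ-3 replicate 1 the difference was 1.7. CXCL8 differed by 0.38 (95% interval 0.06 to 0.69, limma adjusted p = 0.306) and NFKB1 by 0.48 (0.02 to 0.94, adjusted p = 0.384). IL6 lay the other way, at -0.34 (95% interval -0.70 to 0.03, limma adjusted p = 0.434). For TNFAIP3 the difference was -0.10 with an interval of -0.81 to 0.61, which leaves room for a sizeable difference in either direction.

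Some of the genes also differed between the libraries numbered 1 and 2 of an siRNA. In TNFAIP3, library 2 was 1.94 times library 1 with siSFPQ-2 and 1.97 times with siSFPQ-3. NFKB2 had ratios of 1.59 and 1.94, NFKB1 1.58 and 1.44, IL1B 1.44 and 1.78, and NFKBIA 1.26 and 1.39. These 5 genes were over 1.2-fold higher in library 2 of both siRNAs, as were 6.36% of all tested features. IL6 (1.01 and 1.02) and CXCL2 (1.09 and 0.98) had almost equal libraries, and CXCL1 was lower in library 2 of both (0.88 and 0.89). In siCtrl the ratios of the 9 genes ran from 0.69 to 1.16. The labels name no batch, and what lay behind this difference was not tested.

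Profiles along the genes were deposited as signal in 500 bins, of which 300 were taken to cover the gene, scaled to a common length. The question asked of them was whether the rise lay in the first 10% of the scaled gene or in the other 90%. Annotated spans ran from 1916 bases for CXCL1 to 115944 for NFKB1. The first 10% therefore covers unlike lengths, and it does not separate paused from elongating polymerases. In value, mean siSFPQ signal exceeded siCtrl signal in both windows of all 9 genes with reads, and in 8 of them the log2 difference was larger in the last 90% of the gene than in the first 10%.

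**Figure D3:**
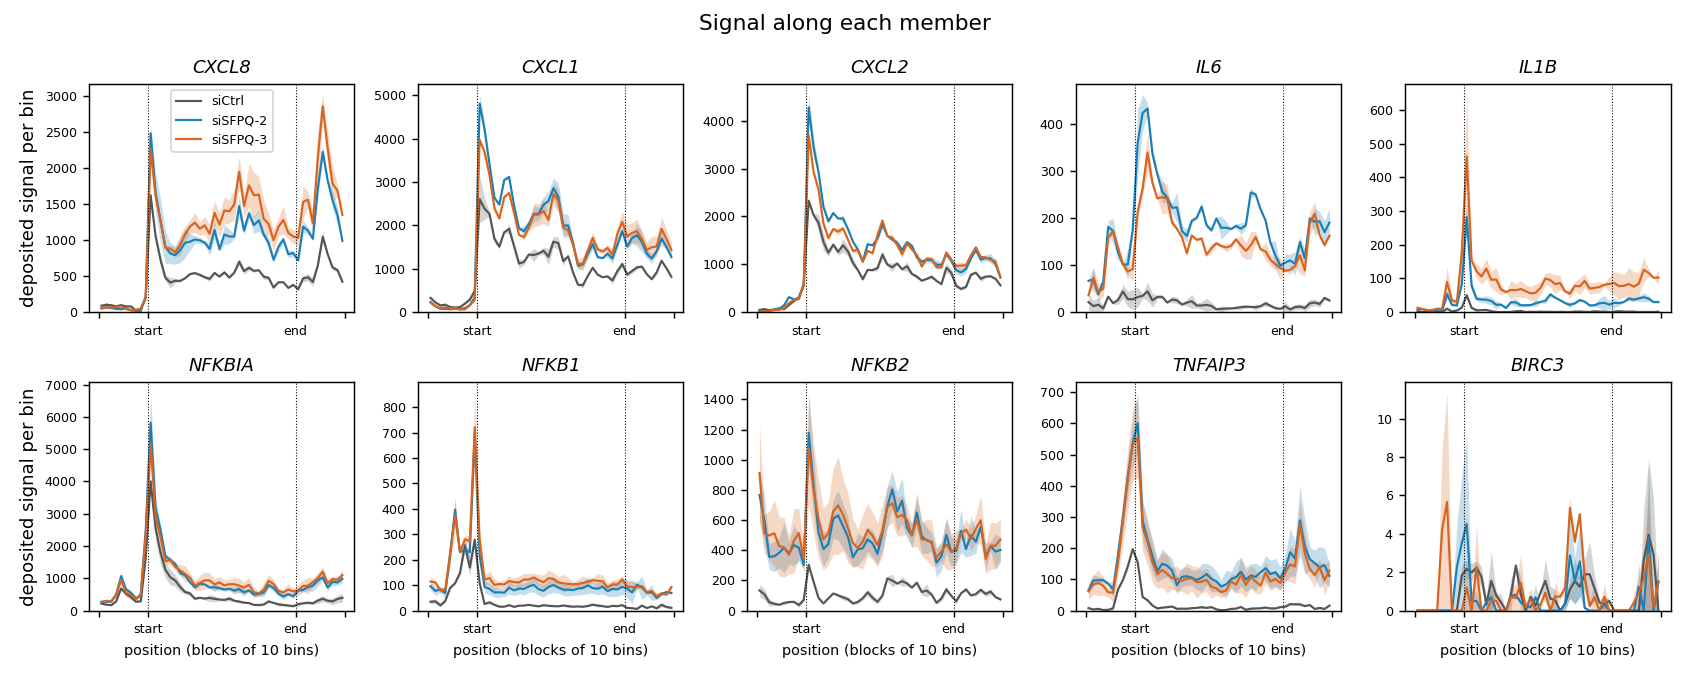
Deposited signal along each of the 10 genes in blocks of 10 bins, with dotted lines at the assumed start and end of the gene and the flanking bins outside them. Lines are group means and shaded bands the range of 2 libraries. The panels have separate linear axes from 0. In IL1B and TNFAIP3 the siCtrl signal is a peak at the start with little after it, while the siSFPQ signal continues across the gene, and BIRC3 stays near 0.

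IL1B had the largest difference between the windows in value, from a control with very few reads (12 and 6 over the whole gene). Its mean front signal, over the first 10% of the gene, was 27.3 and 17.7 in siCtrl, 110 and 156 in siSFPQ-2, and 175 and 315 in siSFPQ-3. Its mean signal over the other 90% was 1.36 and 0.98 in siCtrl, 22.7 and 33.2 in siSFPQ-2, and 58.4 and 97.3 in siSFPQ-3. The ratio of front to rest therefore went from 20.0 and 18.1 in siCtrl to 4.86 and 4.71 in siSFPQ-2 and 3.0 and 3.24 in siSFPQ-3. No siSFPQ library came near the controls, and the log2 difference of the ratio was -2.29. The siCtrl ratios divide by a signal close to 0, and IL1B was tested only because of its siSFPQ libraries.

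TNFAIP3 had front-to-rest ratios of 9.56 and 9.90 in siCtrl, 3.94 and 2.95 in siSFPQ-2, and 4.21 and 3.25 in siSFPQ-3 (log2 difference -1.45). NFKB1 had ratios of 2.83 and 3.17 in siCtrl, 1.81 and 1.36 in siSFPQ-2, and 1.63 and 1.53 in siSFPQ-3 (log2 difference -0.93). NFKBIA had ratios of 7.67 and 6.43 in siCtrl, 4.74 and 5.04 in siSFPQ-2, and 4.39 and 3.64 in siSFPQ-3 (log2 difference -0.67). The peaks of NFKB1 and TNFAIP3 in siCtrl stood before the assumed start, with a mean signal of 291 and 266 in the 10 bins before it and 103 and 114 in the 10 after it for NFKB1, and of 200 and 194 before and 150 and 160 after for TNFAIP3. The front window thus left out much of the start-proximal signal of these genes. In NFKB1, TNFAIP3 and NFKBIA, as in IL1B, every siSFPQ ratio was below both siCtrl ratios. CXCL8 had ratios of 2.25 and 2.39 in siCtrl, 1.73 and 1.86 in siSFPQ-2, and 1.45 and 1.3 in siSFPQ-3. Its ratios again did not overlap between the groups (log2 difference -0.56). How many of all profiled genes had ratios without such overlap was not counted.

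CXCL2, whose ratio was 2.21 and 2.11 in siCtrl, 2.38 and 2.51 in siSFPQ-2, and 2.23 and 2.26 in siSFPQ-3, was the gene whose front gained slightly more (log2 difference 0.12). IL6 (-0.39), NFKB2 (-0.08) and CXCL1 (-0.03) had small differences, those of NFKB2 and CXCL1 changing sign when single libraries were left out. The median over the 9 genes was -0.56, with 8 of 9 below 0. Over all 20529 profiled genes that were tested in the table the median was -0.21 with 67.2% below 0, and over the 2694 of them that were at least 1.5-fold higher it was -0.34 with 71.0% below 0, so a lower ratio was common among genes that went up.

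The fit over all 51991 profiled genes included 6339 at 0 everywhere. It called CXCL8, IL1B, IL6, NFKB1 and TNFAIP3 higher in the last 90% of the gene, 5 of 10 against 7.66% of all. CXCL8 was not called with the replicate block (limma adjusted p = 0.066), nor with profiles scaled to the normalized reads (0.0598), where 4 were. Against the normalized reads, on a log2 scale, the profiles stood at -0.10 and -0.03 in siCtrl and at -0.01 to 0.06 in the siSFPQ libraries. With any 1 library left out, 1 to 3 genes were called. IL1B and IL6 were called in the front, 2 of 10 against 2.5% of all, and 1 gene was called with any 1 library left out. IL1B alone was called for a lower ratio, against 1.41% of all.

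With the fit limited to genes tested in the table, a setting added after seeing the data, all 9 genes were called higher in the last 90% (25.7% of genes were), or 7 without siCtrl replicate 1 and 8 without siCtrl replicate 2. In the front, 8 of 9 were called (10.2% of genes were), the exception being NFKBIA (log2 difference 0.38, limma adjusted p = 0.159). The front count fell to 2 without siCtrl replicate 1, to 1 without siCtrl replicate 2 and to 4 without siSFPQ-2 replicate 2. In that fit the lower ratio was called for IL1B (limma adjusted p = 0.0174) and TNFAIP3 (0.0321), against 4.49% of genes. That count fell to 1 without siCtrl replicate 1 and to 0 without any other single library.

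**Figure D4:**
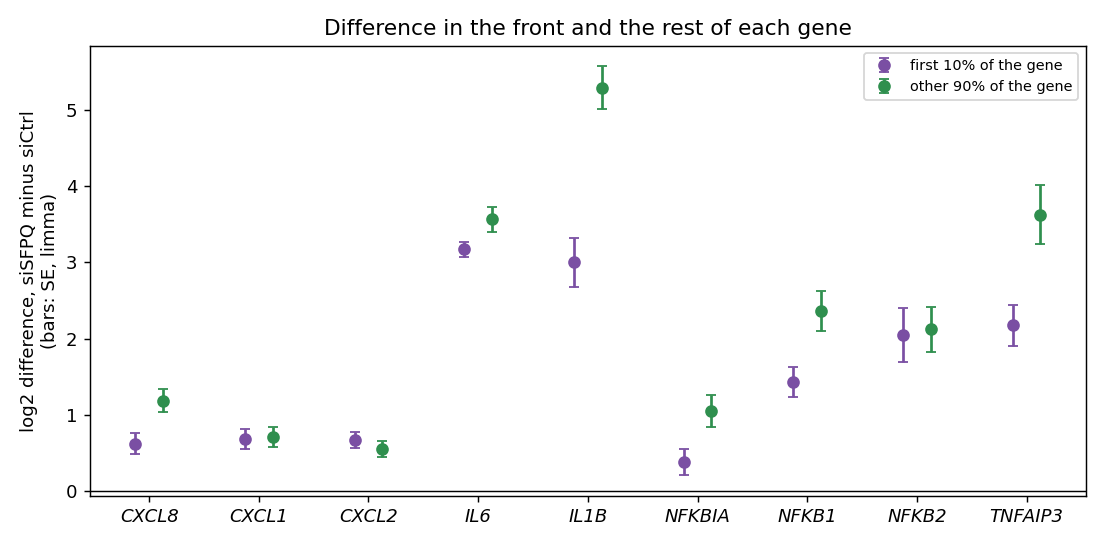
Log2 difference of mean signal, siSFPQ minus siCtrl, in the first 10% of each gene and in the other 90%, with SE from the limma fit limited to genes tested in the table. The point of the other 90% stands above that of the front for every gene but CXCL2, most for IL1B (5.29 and 3.0) and TNFAIP3 (3.63 and 2.17).

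Upstream of the start, in the 100 flanking bins, whose size in bases is unknown, CXCL1 went the other way from its own gene. The mean upstream signal of CXCL1 was 210 and 223 in siCtrl, 131 and 131 in siSFPQ-2, and 134 and 123 in siSFPQ-3. All siSFPQ values were below both controls. CXCL8 had 85.0 and 88.7 in siCtrl, 57.5 and 56.9 in siSFPQ-2, and 82.6 and 54.5 in siSFPQ-3. NFKB2, by contrast, went from 57.1 and 74.4 in siCtrl to 330 and 552 in siSFPQ-2 and 317 and 678 in siSFPQ-3. Mean upstream signal was also higher in the siSFPQ libraries than in siCtrl for NFKBIA (677 and 469), NFKB1 (242 and 118) and TNFAIP3 (189 and 53.5). The same held for IL6 (102 and 23.1) and IL1B (29.4 and 2.85). CXCL2 was nearly level (162 and 159), and BIRC3 was near 0 (0.78 and 0.18). These flanking values were not tested.

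The rest of the pathway, in lists of 94 further genes by role, held more genes called higher than lower. Of 73 features tested, 47 were higher, 4 were lower and 22 were not called, with a median log2 fold change of 0.58, where 24.8% of all tested features were higher and 23.2% lower. Of the 73, 6 were below 10 in both siCtrl libraries, all called higher. Of the other 67, 41 were higher and 4 lower, with a median of 0.55. The lists were chosen with earlier results of these data known, so these counts are a description and not a test. The calls numbered 51 in all, and 37 without siCtrl replicate 2.

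Of the other NF-κB subunits all 3 rose. RELB, the partner of p52 in the non-canonical pathway, went from 231 and 312 normalized reads to 899 and 1432 in siSFPQ-2 and 948 and 1559 in siSFPQ-3 (log2 fold change 2.12). On the same scale REL rose by 1.12 and RELA, the main activating subunit, by 0.55, though the RELA call was lost without siCtrl replicate 1 (limma adjusted p = 0.121).

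Among inhibitors and feedback genes 11 of 14 tested were higher and none lower, with a median log2 fold change of 0.64. Of all tested features 24.8% were higher and 23.2% lower. NFKBIZ, an atypical nuclear IκB that helps to switch on IL6, rose by 1.54. TNIP1, a ubiquitin-binding partner of A20, rose by 1.36, and the deubiquitinase CYLD rose by 1.29. At the kinases 8 of 11 were higher and none lower, with a median of 0.31. With siSFPQ-2 alone 4 were higher, against 21.2% of all tested features. With siSFPQ-3 alone 7 were higher, against 23.0%, and 1 was lower. IKBKE rose by 1.42, TAB3 by 0.89 and IKBKB, a catalytic subunit of the IκB kinase, by 0.61.

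The receptors and adaptors were mixed, with 7 higher, 2 lower and 10 not called of 19 tested and a median log2 fold change of 0.24. Of all tested features 24.8% were higher and 23.2% lower. TLR4, among those higher, was below 10 in both siCtrl libraries and entered only through the siSFPQ libraries. IL18R1, a subunit of the interleukin-18 receptor, rose by 2.46, the interleukin-1 receptor kinase IRAK2 by 1.40 and the Toll-like receptor adaptor TICAM1 by 1.07. IRAK1 fell by 0.43 and the lymphotoxin receptor LTBR by 0.36 on the log2 scale. The IRAK1 call was lost without siCtrl replicate 2 (limma adjusted p = 0.0771), and that of LTBR without siCtrl replicate 1 or 2 (0.0631 and 0.0645).

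Of 24 tested features of other NF-κB target genes, 16 were higher, 2 were lower and 6 were not called, with a median log2 fold change of 1.08. The shares over all tested features were 24.8% higher and 23.2% lower. IL1A, IL18, TNF, MMP9 and CCL20 were below 10 in both siCtrl libraries and entered only through the siSFPQ libraries, where they are high. Of the other 19 features, 11 were higher, with a median of 0.84. Besides IL1A, the cytokine IL32 rose from 38.3 and 45.4 normalized reads to between 257 and 412 (log2 fold change 3.04), and CXCL5, another neutrophil chemokine, rose 2.60-fold. TNFAIP2, in contrast, fell from 1812 and 2119 to between 783 and 1072 (log2 fold change -1.06), and CSF1, the macrophage growth factor, fell by 0.52. Both subunits of the IL6 receptor rose, IL6ST by 1.35 and IL6R by 1.18 on the log2 scale. IL1RAP, the co-receptor for interleukin-1, had a log2 fold change of 0.36 and was not called (limma adjusted p = 0.118), and CXCR1 and CXCR2, the receptors for the chemokines, gave no tested row.

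**Figure D5:**
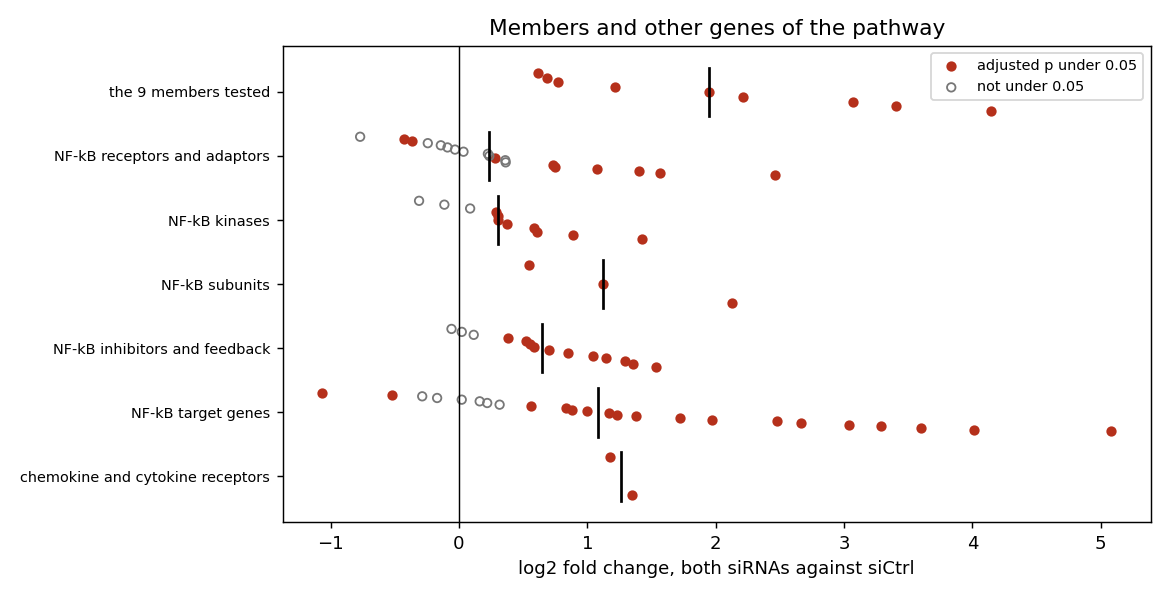
Log2 fold change of both siRNAs against siCtrl for the 9 genes tested and for the tested features of each pathway list, with filled points for a limma adjusted p under 0.05, open points for the rest, and black bars at the medians. The 9 genes, IL1B included, have a median of 1.94. The target genes span TNFAIP2 at -1.06 to IL1A at 5.08, and the receptors and adaptors lie on both sides of 0.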

How the data were processed

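The authors' deposited table holds signal as normalized reads per feature and library, and the authors also deposited log2 fold changes with adjusted p-values, and signal profiles in 500 bins per gene. Per the submitters' processing notes, Bowtie2, DESeq2 1.38.1, SAMtools 1.3.1, cutadapt 1.14 and UMI-tools were used, and hg38 and dm6 are named as builds. The order of these steps, the annotation, the use of strand and the scaling and bin sizes of the profiles are unstated in the sources used here. Whether dm6 entered the normalization is also unstated, so the normalized reads may not show a change of transcription shared by all genes.

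All values of the table (100%) were whole multiples of the value of 1 read (0.797 to 1.11), within 0.1 read, which let whole reads be recovered. After removal of 240 repeated lines, 21773 of 25827 features were tested, those at 10 or more in 2 or more libraries. The test was limma 3.58.1 (R 4.3.3, trend) on log2(value + 1), in 1 fit of the 3 groups, with Benjamini-Hochberg adjustment over all tested features and a threshold of 0.05. A fold change on that scale understates low genes. Profile windows were tested as log2(signal + 0.01). The recovered reads were also tested with edgeR 4.0.16 and DESeq2 1.42.0. The limma fit of both siRNAs against siCtrl was also run on simulated counts of small spread. That run does not show how the fit does at the wider spread of genes such as TNFAIP3.

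The genes and lists were chosen with earlier results of these data known. In each pathway list up to 3 genes called higher and 3 called lower, those of smallest p, were named, besides CXCL3 and SFPQ. Neighbours, overlapping genes, markers and flanking signal were named outside that rule, and IL1RAP, TLR4, IL18, TNF, MMP9 and CCL20 after their values were seen. Promoter sequences are from RefSeq (GRCh38.p14, the same build as hg38), which matched all 10 genes.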

Additional observations from a re-analysis of the deposited data

How the results depend on the processing

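All 9 genes with reads were called higher for both siRNAs together under every alternative run: pseudocounts, filters, equal totals, TMM factors, edgeR, DESeq2, the replicate block and each library left out. Equal totals moved the median of all features to -0.06. Same-numbered libraries deviated together between the siRNAs (r = 0.382) but hardly with siCtrl (0.0529 and 0.0587). The numbers were not taken as pairs in the main fit. Between the siRNAs 0 genes were called, but 1 (IL1B) with DESeq2, 1 with the replicate block (adjusted p = 0.022), and 0 to 1 without single libraries. In the last 90% of the gene 5 were called, 4 with scaled profiles, and 9 with only genes tested in the table (9 with scaled profiles, 9 with the replicate block). Without single libraries 1 to 3 were called there, and 7 to 9 with only tested genes. In the front 2 were called, 0 with the replicate block, and with only tested genes 8, 7 with scaled profiles and 8 with the replicate block. Without single libraries 1 was called there, and with only tested genes 1, 2, 4, 7 or 8. For the ratio 1 was called, 2 with a front of 5%, 0 with the replicate block, and with only tested genes 2, 2 with scaled profiles and 0 with the replicate block. Without single libraries 1 was called, and 0 to 1 with only tested genes. Why these counts moved was not tested.

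Signs turned, in no case past the threshold, for small differences. The log2 difference of the ratio of CXCL1 became 0.057 with a front of 5%, and without single libraries it ran from -0.091 to 0.038 (0.037 without siCtrl replicate 1, 0.033 without siSFPQ-3 replicate 1). That of NFKB2 ran from -0.30 to 0.15 without single siCtrl libraries. Between the siRNAs, equal totals gave CXCL1 -0.019 and CXCL2 -0.045. Without single libraries that difference ran from -0.038 to 0.14 for CXCL1 (-0.035 without siSFPQ-3 replicate 1), from -0.038 to 0.090 for CXCL2, from -0.13 to 0.35 for NFKBIA (-0.058 without siSFPQ-2 replicate 1), from -0.39 to 0.57 for NFKB2 (-0.25 without siSFPQ-2 replicate 1) and from -0.59 to 0.39 for TNFAIP3 (0.38 without siSFPQ-2 replicate 2). The pathway lists gave 51 calls, 54 with the replicate block and 37 to 54 without single libraries. With the replicate block the SFPQ gene was called lower (adjusted p = 0.0492). Depth limits IL1B in siCtrl (12 and 6 reads) and BIRC3.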
